A study of Mus musculus with 31 samples.

Results

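Parvalbumin (Pvalb), Runx3, Etv1, osteopontin (Spp1), calbindin (Calb1), Cntnap2, tyrosine hydroxylase (Th) and Slc17a8 are genes used to mark sensory neurons with large, fast axons and the touch neurons called C-fibre low-threshold mechanoreceptors (C-LTMRs). They were chosen by name, as the rows of both count tables whose Ensembl identifiers map to these 8 symbols in GENCODE M21, and all 8 were found among 55536 genes. The study purified ribosome-bound RNA from neurons of the mouse dorsal root ganglion (DRG) by translating ribosome affinity purification (TRAP) and sequenced it. The Cre libraries came from Nav1.8-Cre;L10a-eGFP-fl/fl mice, in which Cre made from the Nav1.8 locus (Scn10a) switches on an eGFP-tagged ribosomal protein, and the control libraries from L10a-eGFP-fl/fl mice that lack Cre. Batch 1 held central axons (lumbar dorsal roots with spinal cord) and DRG somas, each with 4 Cre and 4 control libraries. Batch 2 held peripheral axons (sciatic nerve, 4 Cre and 3 control libraries) and DRG somas (4 Cre and 4 control libraries), which makes 31 libraries in 8 groups. Every mouse carried the L10a-eGFP allele, and no other treatment is named in the labels; age and sex are not given in the sources used here. The labels call the libraries biological replicates and do not say how many mice each one pooled, so that p-values measure the spread between these libraries.

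Proprioceptors report muscle length and tension, and A-fibre low-threshold mechanoreceptors (A-LTMRs) report light touch and vibration; both have large cell bodies and myelinated axons. Proprioceptors depend on the receptor TrkC and on the transcription factors Runx3 and Etv1, and many of them carry parvalbumin and osteopontin. C-LTMRs are small unmyelinated neurons of hairy skin that carry tyrosine hydroxylase and the vesicular glutamate transporter VGLUT3. Nav1.8 is the sodium channel of nociceptors, and C-LTMRs are also known to carry it. Proprioceptors are known as mostly Nav1.8-negative, so their ribosomes are largely untagged in this cross.

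The positions below are from GENCODE M21 on GRCm38. Runx3, a Runt-domain transcription factor, lies on chromosome 4 from 135120652 to 135177990 on the plus strand. Etv1, an ETS-domain transcription factor also called Er81, lies on chromosome 12 from 38779380 to 38870484 on the plus strand. Pvalb, a calcium buffer, lies on chromosome 15 from 78191114 to 78206400 on the minus strand, and Calb1, another calcium buffer, on chromosome 4 from 15881264 to 15908064 on the plus strand. Spp1, a secreted phosphoprotein, lies on chromosome 5 from 104435118 to 104441050 on the plus strand. Cntnap2, which encodes the cell adhesion protein CASPR2 of the juxtaparanode of myelinated axons, lies on chromosome 6 from 45059357 to 47304213 on the plus strand. Th, the rate-limiting enzyme of catecholamine synthesis, lies on chromosome 7 from 142892752 to 142931128 on the minus strand, and Slc17a8, which encodes VGLUT3, on chromosome 10 from 89574020 to 89621253 on the minus strand. All 8 are protein-coding, with merged exon lengths from 1041 bases (Pvalb) to 13296 bases (Etv1). Spp1 shares 18.8% of its exon bases with the gene model Gm42793 on the same strand, so its counts are uncertain to that extent, and the other 7 share no exon base with another gene.

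RefSeq promoter windows (GRCm38.p6) matched 7 of the 8 symbols, with 13 windows of 250 bases before an annotated start. Both strands were searched for the RUNX core TGTGGT, the ETS core CCGGAAG, the TATA box TATAAA and the cAMP response element TGACGTCA, and no match overlapped another. Of all 32851 windows of this length, 14.0%, 6.91%, 12.4% and 1.55% held these motifs, in that order. The first windows of 4 genes are printed 5′ to 3′ on the gene's strand, for the transcription factors Runx3 and Etv1, which bind such cores, for Pvalb, the most abundant member, and for Th, with the matched letters in capitals (chr4:135120395-135120644, chr12:38779832-38780081, chr15:78206401-78206650 and chr7:142899996-142900245).
Runx3: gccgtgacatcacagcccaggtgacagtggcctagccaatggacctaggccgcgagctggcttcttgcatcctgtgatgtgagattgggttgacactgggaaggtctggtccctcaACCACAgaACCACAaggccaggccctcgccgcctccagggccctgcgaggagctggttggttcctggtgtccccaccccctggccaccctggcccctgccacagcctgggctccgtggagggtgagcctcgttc
Etv1: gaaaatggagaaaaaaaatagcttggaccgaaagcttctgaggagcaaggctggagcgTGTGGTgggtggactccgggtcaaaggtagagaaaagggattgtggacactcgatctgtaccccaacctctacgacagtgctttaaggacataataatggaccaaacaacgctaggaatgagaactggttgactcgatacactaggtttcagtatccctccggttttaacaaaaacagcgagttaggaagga
Pvalb: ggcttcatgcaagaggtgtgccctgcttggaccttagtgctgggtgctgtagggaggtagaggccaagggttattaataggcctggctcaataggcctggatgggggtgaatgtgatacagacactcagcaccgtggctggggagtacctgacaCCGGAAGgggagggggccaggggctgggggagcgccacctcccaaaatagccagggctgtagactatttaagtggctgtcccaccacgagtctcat
Th: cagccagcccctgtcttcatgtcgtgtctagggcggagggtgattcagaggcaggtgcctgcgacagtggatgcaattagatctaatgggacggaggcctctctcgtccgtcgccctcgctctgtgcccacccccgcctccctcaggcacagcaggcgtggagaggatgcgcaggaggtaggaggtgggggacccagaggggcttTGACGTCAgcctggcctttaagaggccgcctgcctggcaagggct
The Runx3 window held the RUNX core on the opposite strand at 134 and 126 bases before the start, and the Etv1 window held it on the gene's strand at 192 bases. The Pvalb window held the ETS core at 96 bases, and the Th window held the cAMP response element at 45 bases before the start. Of the windows not printed, the first of Spp1 held a RUNX core, an ETS core and a TATA box, and the second of Etv1 held a TATA box. The remaining windows, among them both of Cntnap2 and both of Slc17a8, held none of these motifs. The matches describe these letters only, since the study measured no binding at them.

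The libraries held 3.60 to 19.6 M counts, so that a gene without counts could be present at up to 0.153 to 0.833 CPM (the count scaled to the library total, in M), the level of 3 counts. These limits and the intervals given below cover counting error only. Scn10a, the gene that drives the Cre, stood at 45.1 to 421 CPM in the central axon Cre libraries against 0 to 29.9 in their controls, without overlap. In the somas of batch 2 it stood at 313 to 432 CPM against 286 to 598, so that these groups overlapped. Its log2 fold change of Cre against control was 1.59 in peripheral axons (SE 1.29, edgeR unadjusted p = 0.246). In batch 1 somas it was -0.47 (SE 1.11, edgeR adjusted p = 0.849). Controls were uneven: 4934 to 7889 genes reached 10 counts in the batch 1 soma controls against 12502 to 14015 in the Cre somas, and batch 2 soma control 5 held 18.1 M counts where controls 6 to 8 held 3.60 to 4.52 M. The scaling factor of edgeR (TMM) for batch 1 soma control 3 was 0.0547, where the other 7 libraries of that comparison had 1.30 to 1.78, so each marker's fold change in that comparison is also given with library totals alone. A single column name heads 2 of the batch 1 soma controls, which are called a and b here.

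Counts for the markers were present but uneven. Etv1 had counts in 29 of 31 libraries, Pvalb and Cntnap2 in 28, Spp1 in 27, Calb1 in 23, Th in 21, Slc17a8 in 19 and Runx3 in 18. All 16 Cre libraries held counts of Pvalb and Etv1. Runx3 was missing from all 7 axon controls and from 5 of the 8 axon Cre libraries. Compared per length, as CPM per kb of exon, Pvalb had the highest mean level of the 8 in every group except the central axon controls, where Calb1 led. Runx3 or Slc17a8 was the lowest of the 8 in each group; in the peripheral axon controls Calb1, Runx3 and Slc17a8 were all at 0.

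**Figure D1:**
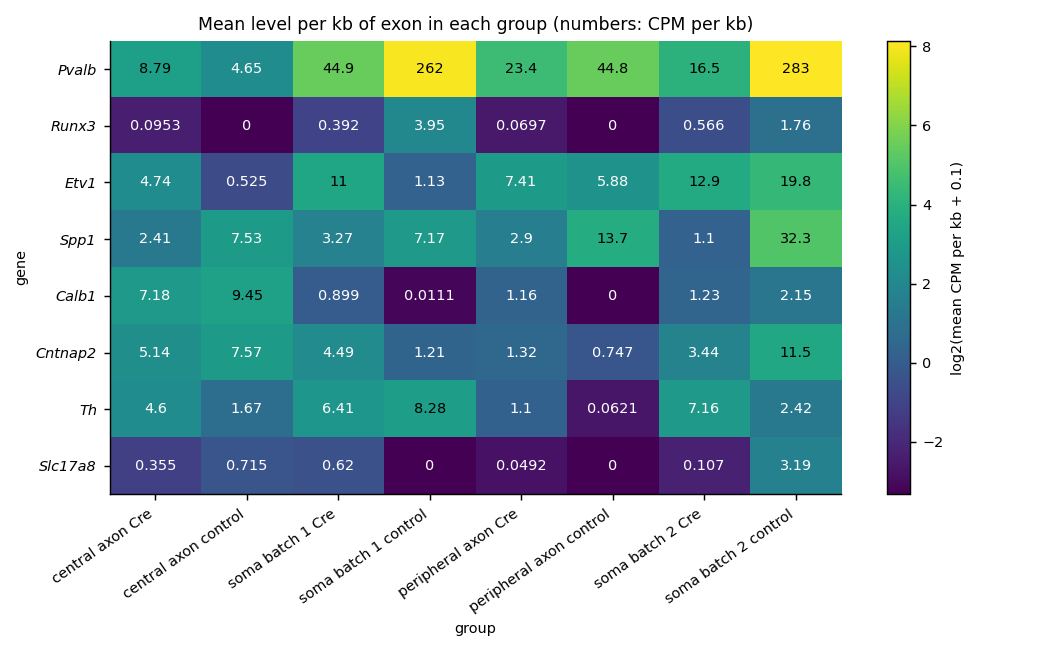
Mean level per kb of exon of the 8 markers (rows) in the 8 groups (columns), as CPM per kb printed in each cell and as colour on a log2 scale with 0.1 added. Pvalb stands highest in the soma controls, at 262 and 283 CPM per kb, and Runx3 and Slc17a8 are at or near 0 in the axon groups.

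Cre and control libraries were compared within each tissue and batch with edgeR's quasi-likelihood test, and a gene was called at a Benjamini-Hochberg adjusted p under 0.05 over all genes tested. No marker was called in any of these 4 comparisons. In central axons 0 of 7 tested markers were called, beside 2 of 14189 genes (0.0141%), and 0 had an unadjusted p under 0.05, beside 684 genes. DESeq2 called 437 genes there and none of the markers, and gave no adjusted p for Pvalb. In peripheral axons 0 of 4 tested markers were called beside 0 of 13970 genes (0.0%), 0 had an unadjusted p under 0.05 beside 514 genes, and DESeq2 called 88 genes and no marker. In batch 1 somas 0 of 6 tested markers were called beside 4.42% of 11667 genes, 2 had an unadjusted p under 0.05 (Pvalb and Spp1), and DESeq2 called 1, Slc17a8, and gave no adjusted p for Pvalb, Spp1 and Th. In batch 2 somas 0 of 8 markers were called beside 0 of 15280 genes (0.0%), where 4 markers and 2503 genes had an unadjusted p under 0.05. DESeq2 called 3 markers and 1529 genes there, and gave no adjusted p for Runx3.

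The groups did not overlap for 1 of 7 tested markers in central axons (Etv1, beside 8.14% of all genes tested), for 1 of 4 in peripheral axons (Spp1, beside 6.36%), for 1 of 6 in batch 1 somas (Etv1, beside 15.8%) and for 1 of 8 in batch 2 somas (Pvalb, beside 13.3%). In batch 2 somas 7 of the 8 markers had a log2 fold change below 0, with a median of -1.44 where the median of all genes was 0.06. Of 13 tested other proprioceptor and A-LTMR genes 12 were below 0 there, with a median of -1.84 and none called. Genes of other cells were also mostly below 0 in batch 2 somas, with none called. These were 6 of 6 fibroblast, 9 of 10 Schwann and satellite glia and 7 of 7 macrophage and microglia genes. The fibroblast and the Schwann and satellite glia medians were lower than both medians above. Of the nociceptor genes 6 of 9 were above 0. The part of other cells in the fall of the markers was not tested. The medians of the tested markers in the other 3 comparisons were -0.38 in central axons, -0.23 in peripheral axons and 0.29 in batch 1 somas. The medians of all genes there were 0.11, 0.07 and -0.45.

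Axons were compared with somas of the same batch among Cre libraries. Central axons differed from somas in 3 of 7 tested markers, beside 1990 of 14480 genes called (13.7%). Pvalb and Etv1 were lower in the axons and Calb1 was higher. The groups did not overlap for the same 3 markers, beside 22.1% of all genes tested. Of all called genes 1250 were higher and 740 lower in axons, and with library totals alone 2146 and 293. Peripheral axons differed from somas in 1 of 7 tested markers, Etv1, which was lower, beside 4818 of 15467 genes called (31.2%, 2889 higher and 1929 lower; 3309 and 1469 with library totals alone). The groups did not overlap for 4 of the 7 (Runx3, Etv1, Cntnap2 and Th), beside 38.7% of all genes tested. The central axon-to-soma difference minus the peripheral one was not called for any of the 8 markers, beside 2187 of 16725 genes called (13.1%); 2 markers and 4791 genes had an unadjusted p under 0.05, and DESeq2 called 2 markers, Pvalb and Calb1. These comparisons hold no controls, and batch and axon type cannot be told apart in a direct comparison. In libraries of bulk tissue, fewer cells of a type and less RNA per cell cannot be told apart either.

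**Figure D2:**
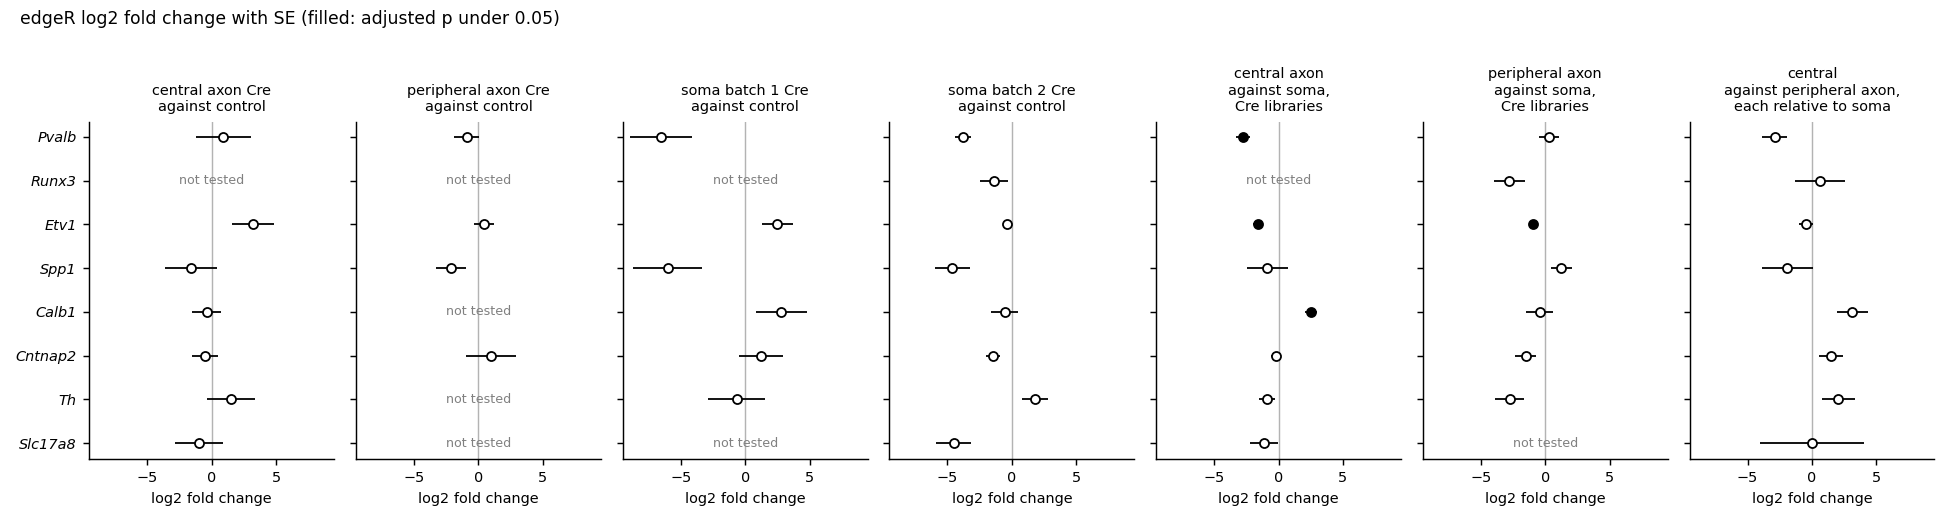
The edgeR log2 fold change (x axis) of each marker (rows) with its SE as a bar, in the 7 comparisons (panels); filled points have an adjusted p under 0.05 and open points do not. The filled points are Pvalb, Etv1 and Calb1 in central axon against soma and Etv1 in peripheral axon against soma.

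Runx3 was the scarcest of the proprioceptor transcription factors. It stood at 0.472, 1.44, 0 and 0 CPM in the 4 central axon Cre libraries and at 0, 1.39, 0 and 0 in the peripheral ones, and at 0 in all 7 axon controls. Cre somas held 1.66, 0.779, 0.777 and 4.63 CPM in batch 1 and 4.12, 4.24, 1.48 and 1.49 CPM in batch 2. Every Cre soma therefore held Runx3, where 3 of the 8 axon Cre libraries did. Depth differed in batch 2: peripheral axon Cre libraries 1, 3 and 4 held 4.11, 4.10 and 5.77 M counts, library 2 held 15.1 M and the Cre somas 15.6 to 19.6 M. In batch 1 the central axon Cre libraries held 10.4 to 11.1 M and the Cre somas 7.56 to 11.6 M. The batch 1 soma controls stood at 78.6, 0, 0.117 and 0.251 CPM (replicates 1, 3, a and b) and the batch 2 soma controls at 2.16, 29.4, 0.833 and 2.88 CPM. Single libraries made up most of these: control 1 of batch 1 (641 counts, Wilson 95% interval 72.8 to 84.9 CPM) and control 6 of batch 2. T and NK cells, which also use Runx3, were followed by 5 genes (Cd3e, Cd3g, Cd8a, Cd4 and Nkg7), and all 5 were at 0 in control 1. Their sum was near 0 in every group, reaching at most 1.45 CPM in the batch 1 Cre somas. The part of such cells in the Runx3 counts was not tested.

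By mean level per kb, Runx3 ran from 3.95 ± 7.85 (SD, n = 4) in the batch 1 soma controls through 1.76 ± 2.74 in the batch 2 soma controls, 0.566 ± 0.312 and 0.392 ± 0.365 in the Cre somas of batches 2 and 1, and 0.0953 ± 0.135 and 0.0697 ± 0.139 in central and peripheral axons to 0 in both axon control groups. No neighbours in this order differed by more than the larger of their SDs. Peripheral axons lay below somas without overlap (a difference of -2.79 in log2, SE 1.20, edgeR adjusted p = 0.0982), and without axon library 2, the only one with counts, the adjusted p was 0.00498. In the batch 2 somas the Cre against control difference was -1.39 (SE 1.12, edgeR adjusted p = 0.576) and turned to 0.73 without control 6. Runx3 was below the filter in 4 of the 7 comparisons.

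Etv1 was plentiful in both compartments. The central axon Cre libraries stood at 99.7, 43.0, 78.0 and 31.4 CPM and their controls at 15.5, 0, 0 and 12.4. Every Cre library was above every control, and the log2 fold change was 3.22 (SE 1.64, edgeR adjusted p = 1.00). Of the nociceptor genes 9 of 9 tested were also above 0 with none called, and the summed level of the 10 nociceptor genes was 1688 to 8668 CPM in the Cre libraries and 379.9 to 1339 CPM in the controls. In peripheral axons Etv1 stood at 60.3, 122, 138 and 74.4 CPM in Cre libraries and at 166, 59.2 and 8.84 CPM in controls, which overlapped (0.44, SE 0.78, edgeR adjusted p = 1.00; -0.09 without control 4).

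The Cre somas held 120, 116, 140 and 207 CPM of Etv1 in batch 1 and 187, 172, 172 and 157 CPM in batch 2. Their controls differed between the batches. Batch 1 soma controls stood at 2.58, 1.08, 21.7 and 34.6 CPM, all below the Cre somas (2.50, SE 1.19, edgeR adjusted p = 0.339; 3.25 with library totals alone), and batch 2 soma controls at 189, 218, 324 and 323 CPM, all above the Cre somas in CPM and overlapping them after TMM scaling (-0.34, SE 0.25, edgeR adjusted p = 0.544). Whether these 2 contrasts differ was not tested.

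Central axons had less Etv1 than somas, by -1.60 on the log2 scale (SE 0.41, edgeR adjusted p = 0.0224), with normalised means of 56.2 ± 32.6 CPM (SD, n = 4) in axons and 170 ± 42.6 CPM (n = 4) in somas and no overlap. The call was lost without central axon Cre library 2, 3 or 4 (edgeR adjusted p = 0.0786, 0.0533 and 0.0541). Peripheral axons also had less Etv1 than somas (-0.96, SE 0.33, edgeR adjusted p = 0.0443; 95.2 ± 44.0 against 185 ± 14.1 CPM, n = 4 each, no overlap). That call was lost with library totals alone (0.0552), without axon library 4 (0.0847) and without any of soma libraries 5 to 8 (0.0726 to 0.0930). The central minus the peripheral difference was -0.48 (SE 0.53, edgeR adjusted p = 0.597). Scn10a was also lower in peripheral axons than in somas (-1.39, SE 0.49, edgeR adjusted p = 0.0492), and of 9 tested nociceptor genes 7 were called lower there and 5 in central axons. Divided by Scn10a per length, Etv1 stood at 29.6 ± 12.6% in central axons and 21.4 ± 4.29% in their somas, and at 52.4 ± 30.8% in peripheral axons and 28.9 ± 5.45% in theirs (SD, n = 4 each). By this measure the mean was higher in axons than in somas, with overlapping libraries in both pairs.

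Etv1 means per kb ran from 19.8 ± 5.28 in the batch 2 soma controls to 12.9 ± 0.918 in the batch 2 Cre somas, 11 ± 3.18 in the batch 1 Cre somas, 7.41 ± 2.79 in peripheral axons, 5.88 ± 6.05 in their controls, 4.74 ± 2.37 in central axons, 1.13 ± 1.21 in the batch 1 soma controls and 0.525 ± 0.613 in the central axon controls. Neighbours differed by more than the larger SD at 3 places in this order: below the batch 2 soma controls, below the batch 1 Cre somas and below the central axons.

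Pvalb was lowest in central axons. The Cre libraries there stood at 6.98, 12.9, 7.51 and 9.19 CPM, and the controls at 0, 0, 0 and 19.3 CPM. The Cre libraries lay close together, and the fourth control stood above all of them (0.90, SE 2.12, edgeR adjusted p = 1.00). Batch 1 Cre somas held 11.5, 44.6, 41.3 and 89.7 CPM, and the axons lay below them without overlap in normalised CPM (7.83 ± 2.12 against 53.4 ± 34.2, n = 4 each). The log2 difference was -2.77 (SE 0.52, edgeR adjusted p = 0.00521), and it was called under every alternative scaling, filter and tool and without each library in turn. Divided by Scn10a per length, Pvalb stood at 12.7, 94.5, 46.5 and 156% in central axons and at 28.2, 74.1, 87.4 and 136% in somas, which overlapped.

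In peripheral axons Pvalb stood at 43.5, 30.5, 22.5 and 0.867 CPM in Cre libraries and at 26.4, 75.5 and 38.1 CPM in controls (-0.91, SE 0.99, edgeR adjusted p = 1.00). Batch 2 Cre somas held 16.4, 26.8, 14.9 and 10.6 CPM, and the peripheral axons overlapped them (0.30, SE 0.75, edgeR adjusted p = 0.782). The central axon-to-soma difference minus the peripheral one was -2.90 (SE 0.97, edgeR adjusted p = 0.0524). It passed the threshold with RLE scaling (0.0439), with no filter (0.0225) and in DESeq2 (0.0180). Skeletal muscle also carries parvalbumin, and the 6 muscle genes (Acta1, Ckm, Myh4, Tnnt3, Mylpf and Mb) moved with the tissue. Their summed level was 621 to 2447 CPM in the peripheral axon Cre libraries, 976 to 19256 CPM in the controls and 15.6 to 80.4 CPM in the batch 2 Cre somas, and 4 of 4 tested were called higher in peripheral axons than in somas, Acta1 and Ckm with the smallest p. Peripheral control 2, with the highest muscle sum, also had the highest Pvalb of that group, and Cre library 4, with the lowest, had the lowest Pvalb. The part of muscle RNA in these values was not tested.

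The soma controls held the most Pvalb of all groups. Batch 1 soma controls stood at 405, 553, 121 and 11.4 CPM (replicates 1, 3, a and b) and overlapped the Cre somas. The log2 fold change of Cre against control was -6.52 (SE 2.38, edgeR adjusted p = 0.276). It was -2.55 with library totals alone and -2.0 without control 3, the library with the small scaling factor. Control 1 also held a muscle sum of 9850 CPM, where control 3, with the highest Pvalb, held 2.05 CPM. The part of muscle RNA in the Pvalb of these controls was not tested.

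Batch 2 soma controls stood at 41.0, 255, 362 and 518 CPM of Pvalb, all above the Cre somas. The log2 fold change was -3.81 (SE 0.63, edgeR adjusted p = 0.0510, just above the threshold of 0.05), with normalised means of 18.9 ± 7.70 and 266 ± 185 CPM (SD, n = 4 each). With RLE scaling it was called (0.0483), likewise with library totals alone (0.0319), with no filter (0.00264), in DESeq2 (5.3e-06) and without control 5 (0.00304) or control 7 (0.0300). Control 5, the deep library, stood nearest to the Cre somas. The muscle sum in controls 5 to 8 was 31.3, 1015, 38.9 and 105 CPM, and it was 15.6 to 80.4 CPM in the Cre somas. The part of muscle RNA in the Pvalb of these controls was not tested. The 14 other proprioceptor and A-LTMR genes summed to 611, 1984, 2340 and 2286 CPM in these controls and to 401 to 555 CPM in the Cre somas. Genes of other cells stood higher in the same controls: the 6 fibroblast genes summed to 907 to 3656 CPM against 173 to 364, and the 10 Schwann and satellite glia genes to 1044 to 2620 against 634 to 777. Their part in the result was not tested.

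By mean level per kb, Pvalb ran from 283 ± 192 and 262 ± 240 in the soma controls of batches 2 and 1 to 44.9 ± 31 in the batch 1 Cre somas, 44.8 ± 24.7 and 23.4 ± 17.2 in peripheral axon controls and Cre libraries, 16.5 ± 6.59 in the batch 2 Cre somas, 8.79 ± 2.58 in central axons and 4.65 ± 9.29 in their controls. With TMM scaling over all 31 libraries the batch 1 soma controls came to 3533, through control 3. Neighbours in this order overlapped throughout, and only batch 2 Cre somas and central axons differed by more than the larger SD.

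**Figure D3:**
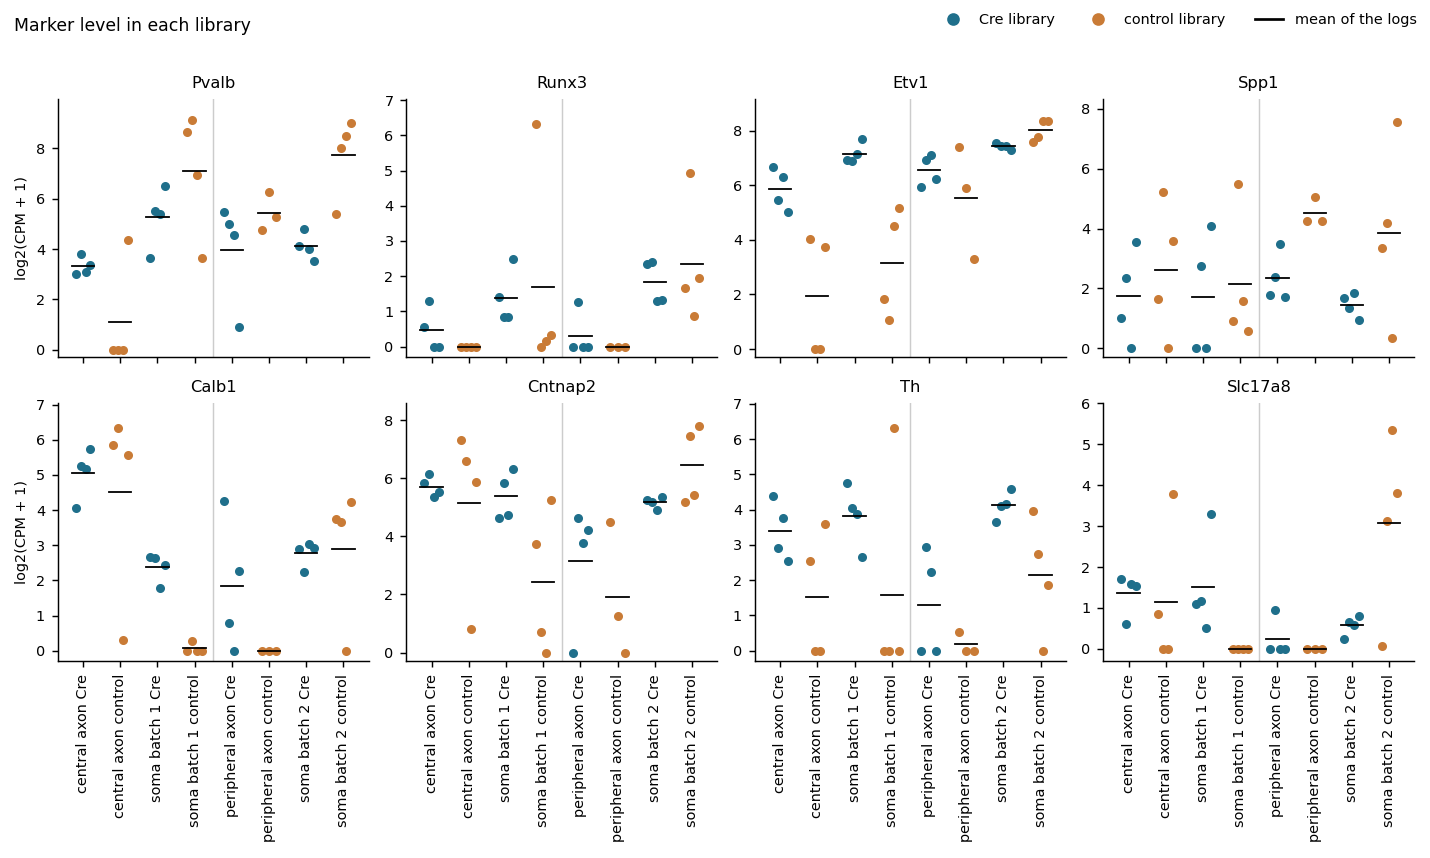
Level of the 8 markers in each of the 31 libraries as log2(CPM + 1) (y axis) in the 8 groups (x axis); points are libraries, coloured by Cre or control, bars are means of the logs, and a grey line divides the batches. Pvalb is highest in the soma controls, Calb1 in both central axon groups except control 3, and Th and Runx3 each have a single high library in the batch 1 soma controls.

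Calb1 was the 1 marker higher in central axons than in somas. Central axon Cre libraries stood at 15.6, 37.0, 34.7 and 51.9 CPM, and batch 1 Cre somas at 5.39, 5.26, 2.42 and 4.37 CPM. The lowest axon library was above the highest soma library. The log2 difference was 2.53 (SE 0.47, edgeR adjusted p = 0.00531; normalised means 29.2 ± 10.4 and 5.06 ± 1.5 CPM, n = 4 each), and it was called under every alternative run. The central axon controls, however, stood at 56.8, 79.5, 0.247 and 46.7 CPM, so 3 of 4 were above at least 3 of the Cre libraries (-0.38, SE 1.12, edgeR adjusted p = 1.00). Control 3, the library with the fewest genes in its group, held 2 counts.

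Neurons of the spinal cord, which also carry calbindin, were followed by 7 genes (Gad1, Gad2, Slc32a1, Slc6a5, Pax2, Lamp5 and Slc17a6, the last also a gene of sensory neurons). All 7 were detected in each central axon Cre library, and their summed level was 292 to 546 CPM there, 411 to 1061 CPM in the controls and 91.7 to 252 CPM in the batch 1 Cre somas, where Gad2, Slc32a1 and Slc6a5 were at 0 in all 4. Of these 7 genes 6 were called higher in central axons than in somas, Lamp5 and Gad2 with the smallest p. The part of spinal cord RNA in the Calb1 difference was not tested.

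Outside the central axons Calb1 was low. Peripheral axon Cre libraries stood at 18.0, 0.730, 0 and 3.81 CPM, and their 3 controls at 0, a mean at least 9.88-fold higher in Cre libraries against a floor of 3 counts per library, and at least 2.65-fold without Cre library 1. Batch 2 Cre somas held 6.43, 3.73, 7.13 and 6.64 CPM and their controls 12.4, 11.6, 0 and 17.7 CPM (-0.56, SE 1.05, edgeR adjusted p = 0.823). The batch 1 soma controls held 2 counts in control 3 and none in the others (2.81, SE 2.01, edgeR adjusted p = 0.485). With library totals alone that comparison was called (5.95, edgeR adjusted p = 0.00256), likewise without control 3 (0.00703). Peripheral axons and their somas overlapped (-0.44, SE 1.07, edgeR adjusted p = 0.773), and the central against peripheral difference was 3.11 (SE 1.19, edgeR adjusted p = 0.0886), which DESeq2 called (0.0439).

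Calb1 means per kb ran from 9.45 ± 6.87 in the central axon controls and 7.18 ± 3.08 in the Cre libraries to 2.15 ± 1.54 in the batch 2 soma controls, 1.23 ± 0.316 in the batch 2 Cre somas, 1.16 ± 1.73 in peripheral axons, 0.899 ± 0.283 in the batch 1 Cre somas, 0.0111 ± 0.0223 in their controls and 0 in the peripheral axon controls. The order broke beyond the larger SD below the central axon Cre libraries and below the batch 1 Cre somas, and at the second of these breaks the groups did not overlap.

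Spp1 was low in all Cre groups and higher in some controls. Central axon Cre libraries stood at 1.04, 4.04, 0 and 10.8 CPM and their controls at 2.10, 36.6, 0 and 11 CPM (-1.63, SE 2.00, edgeR adjusted p = 1.00). In peripheral axons the Cre libraries stood at 2.43, 4.18, 10.2 and 2.25 CPM and the controls at 18.0, 32.1 and 17.9 CPM, without overlap (-2.13, SE 1.13, edgeR adjusted p = 1.00). Macrophage genes, whose cells can also carry osteopontin, were below 0 for 7 of 9 in this comparison with none called, and their sum was 94.9 to 171 CPM in Cre libraries and 46.2 to 401 CPM in controls. Fibroblast genes were below 0 there for 6 of 6 and skeletal muscle genes for 6 of 6, with none called. The part of any of these cells in the Spp1 counts was not tested. Batch 2 Cre somas held 2.19, 1.54, 2.60 and 0.915 CPM, and the controls 9.13, 17.3, 0.278 and 186 CPM. The log2 fold change there was -4.62 (SE 1.34, edgeR adjusted p = 0.121; 0.00531 in DESeq2), and -2.01 without control 8. In batch 1 somas the Cre libraries stood at 0, 5.65, 0 and 15.9 CPM and the controls at 0.859, 43.9, 2.00 and 0.501 CPM (-6.01, SE 2.68, edgeR adjusted p = 0.314). This was -1.13 with library totals alone and turned to 1.96 without control 3.

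The axon and soma libraries overlapped in Spp1, in central axons (-0.86, SE 1.58, edgeR adjusted p = 0.764) or peripheral ones (1.25, SE 0.79, edgeR adjusted p = 0.251). By mean level per kb, Spp1 ran from 32.3 ± 54.0 in the batch 2 soma controls through 13.7 ± 4.94 in the peripheral, 7.53 ± 10.2 in the central and 7.17 ± 13.0 in the batch 1 soma controls to 3.27 ± 4.54, 2.90 ± 2.27, 2.41 ± 2.96 and 1.10 ± 0.448 in batch 1 Cre somas, peripheral axons, central axons and batch 2 Cre somas. With TMM scaling over all 31 libraries the batch 1 soma controls came to 171. All 4 control means were above all 4 Cre means, and no neighbours differed by more than the larger SD.

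Cntnap2 levels overlapped between central axons and their somas. Central axon Cre libraries stood at 56.7, 69.2, 39.5 and 45.1 CPM and batch 1 Cre somas at 23.6, 55.4, 25.4 and 79.5 CPM, which overlapped (-0.19, SE 0.39, edgeR adjusted p = 0.790; 0.20 with library totals alone). The central axon controls stood at 157, 96.0, 0.741 and 57.0 CPM, with control 3 low and the others at the level of the Cre libraries or above (-0.51, SE 1.01, edgeR adjusted p = 1.00). Batch 1 soma controls held 12.3, 0.647, 0 and 36.8 CPM (1.23, SE 1.72, edgeR adjusted p = 0.734; 1.85 with library totals alone). Peripheral axons held 0, 23.6, 12.7 and 17.7 CPM in Cre libraries and 21.6, 1.39 and 0 CPM in controls (0.97, SE 1.94, edgeR adjusted p = 1.00). Batch 2 Cre somas stood close together at 37.0, 35.3, 28.9 and 40.0 CPM, and every peripheral axon library was below them (-1.52, SE 0.81, edgeR adjusted p = 0.176; 0.0106 without axon library 1, the one at 0). Batch 2 soma controls stood at 35, 174, 42.2 and 221 CPM (-1.49, SE 0.55, edgeR adjusted p = 0.208), and without control 5 the difference was called (0.0458).

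Cntnap2 means per kb ran from 11.5 ± 9.17 in the batch 2 soma controls through 7.57 ± 6.40 and 5.14 ± 1.29 in central axon controls and Cre libraries, 4.49 ± 2.61 and 3.44 ± 0.456 in the Cre somas of batches 1 and 2 to 1.32 ± 0.981 in peripheral axons, 1.21 ± 1.68 in the batch 1 soma controls and 0.747 ± 1.18 in the peripheral controls. Only batch 2 Cre somas and peripheral axons, neighbours in this order, differed by more than the larger SD, and they did not overlap.

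Of the C-LTMR markers, Th was present in all 8 Cre somas and all 4 central axon Cre libraries. The central axons stood at 19.8, 6.46, 12.5 and 4.79 CPM and the batch 1 Cre somas at 26.2, 15.5, 13.6 and 5.29 CPM (-0.89, SE 0.63, edgeR adjusted p = 0.374). Central axon controls held 4.85, 0, 0 and 11 CPM, 2 of 4 without counts (1.52, SE 1.86, edgeR adjusted p = 1.00). In the peripheral axons Th stood at 0, 6.71, 3.66 and 0 CPM in Cre libraries and at 0.440, 0 and 0 CPM in controls, where the value above 0 was 2 counts; 2 of the 4 Cre libraries had no count either. Batch 2 Cre somas held 11.6, 16.2, 16.7 and 23.2 CPM, so that every peripheral axon library lay below every soma library (-2.77, SE 1.10, edgeR adjusted p = 0.0752). That difference was called with no filter (0.0367), in DESeq2 (0.0257) and without axon library 1 or 2 (0.0415 and 0.0340). The central minus the peripheral axon-to-soma difference in Th was 2.03 (SE 1.29, edgeR adjusted p = 0.313).

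Soma controls were split in Th. Batch 2 soma controls held 14.5, 5.67, 0 and 2.66 CPM (1.77, SE 1.02, edgeR adjusted p = 0.419). In batch 1 soma controls 3 of 4 libraries had no count, and control a held 667 counts, 78.3 CPM (Wilson 95% interval 72.6 to 84.5), the highest of all 31 libraries. The Cre against control difference in batch 1 was -0.65 (SE 2.21, edgeR adjusted p = 0.899; -0.38 with library totals alone) and turned to 9.89 without control a. Sympathetic neurons, which also make catecholamines, were followed by Dbh, the enzyme that makes noradrenaline, and by Npy. In control a Dbh was at 0, and the part of such neurons in the Th counts of control a was not tested. Dbh had counts in 2 libraries, peripheral control 4 (18.7 CPM, where Th was 0) and batch 2 Cre soma 6 (0.129 CPM). Npy, also a gene of spinal cord neurons, was present in the central axons, with 47.6 ± 4.83 CPM (SD, n = 4) in Cre libraries and 105 ± 31.6 CPM (n = 4) in controls.

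Slc17a8 was the other C-LTMR marker and close to the detection limit in most groups. Central axon Cre libraries stood at 2.26, 0.538, 1.99 and 1.91 CPM (6 to 24 counts) and batch 1 Cre somas at 1.14, 1.27, 0.431 and 8.87 CPM (-1.14, SE 1.06, edgeR adjusted p = 0.515). Central axon controls held 0.808, 0, 0 and 12.7 CPM (-0.98, SE 1.87, edgeR adjusted p = 1.00; 2.57 without control 4). The 4 batch 1 soma controls had no count, and the Cre mean was at least 8.24-fold higher against the floor of 3 counts per library. That bound was 2.66-fold without Cre library 4 and 1.01-fold with TMM scaling, and DESeq2 called this difference. Peripheral axons held 0, 0.930, 0 and 0 CPM in Cre libraries and 0 in the 3 controls. Batch 2 Cre somas held 0.187, 0.578, 0.509 and 0.744 CPM and their controls 0.0553, 7.65, 39.4 and 13.1 CPM (-4.52, SE 1.38, edgeR adjusted p = 0.138; 0.00339 in DESeq2 and 0.0184 without control 5). Control 5 lay below all 4 Cre somas, and controls 6 to 8 lay above them.

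By mean level per kb, Th ran from 8.28 ± 16.6 in the batch 1 soma controls, carried by control a, through 7.16 ± 2.01, 6.41 ± 3.64 and 4.60 ± 2.88 in batch 2 Cre somas, batch 1 Cre somas and central axons to 2.42 ± 2.68, 1.67 ± 2.20, 1.10 ± 1.37 and 0.0621 ± 0.107 in batch 2 soma controls, central axon controls, peripheral axons and peripheral controls. No neighbours in this order differed by more than the larger SD. Slc17a8 ran from 3.19 ± 3.62 in the batch 2 soma controls through 0.715 ± 1.32 in central axon controls, 0.620 ± 0.843 in batch 1 Cre somas, 0.355 ± 0.164 in central axons, 0.107 ± 0.0494 in batch 2 Cre somas and 0.0492 ± 0.0985 in peripheral axons to 0 in the other two groups. Central axons and batch 2 Cre somas, neighbours in this order, differed by more than the larger SD and still overlapped.

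Other genes of the same neuron types gave counts that can be set beside the markers. Of 14 tested other proprioceptor and A-LTMR genes 5 were called higher and 0 lower in central axons than in somas, with a median log2 difference of 0.56, where 13.7% of all genes were called. Of 6 tested astrocyte and oligodendrocyte genes 5 were also called higher there, with a median of 6.24. In central axon Cre libraries against their controls, 12 of the 14 proprioceptor and A-LTMR genes were below 0, with a median of -0.87 and none called. These 14 genes summed to 724 to 1677 CPM in the central axon Cre libraries and to 1803 to 2710 CPM in the controls. Among these 14 genes, Nxph1 (5.94, SE 0.82, edgeR adjusted p = 0.000845) and Vsnl1 (2.53, SE 0.44, edgeR adjusted p = 0.00388) had the smallest p in central axons against somas. In peripheral axons 6 of 12 were called higher, led by the transcription factors Maf (4.22, SE 0.43, edgeR adjusted p = 5.7e-05) and Shox2 (2.41, SE 0.48, edgeR adjusted p = 0.00320), and 1 lower, where 31.2% of all genes were called. Fibroblast genes (6 of 6), Schwann and satellite glia genes (8 of 10) and macrophage and microglia genes (5 of 8) were also called higher in peripheral axons, with medians of 4.20, 5.53 and 2.87. The part of these cells in the counts of either axon was not tested. Of the 5 other C-LTMR genes, 1 was called higher and 2 lower in central axons than in somas, and none of 5 in peripheral axons. The channel Piezo2 (-2.0, SE 0.58, edgeR adjusted p = 0.0383) and the secreted protein gene Fam19a4 (-1.66, SE 0.50, edgeR adjusted p = 0.0412) had the smallest p. Against controls, 2 of 11 tested proprioceptor and A-LTMR genes were called, both higher in batch 1 Cre somas (Kcns1 and Whrn, each at 0 in all 4 controls), where 4.42% of all genes were called. The median of those 11 was -1.03 with 6 below 0, and no gene was called there without control 1, a or b. The medians of all genes in the axon against soma comparisons were 0.05 and -0.03.

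**Figure D4:**
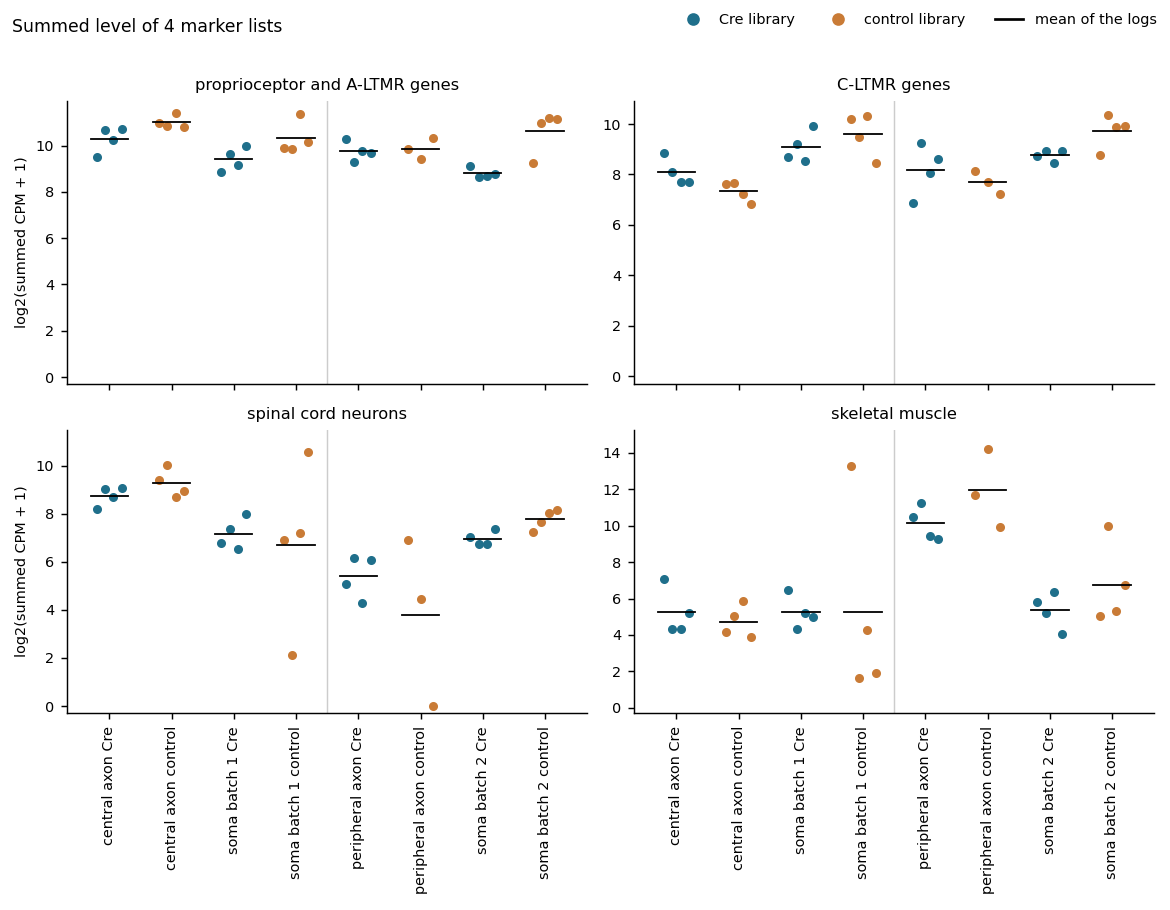
Summed level of 4 gene lists in each library as log2(summed CPM + 1) (y axis) in the 8 groups (x axis), with the same colours and bars as the plot of marker levels. Spinal cord neuron genes are high in both central axon groups and in 1 batch 1 soma control (b), and skeletal muscle genes are high in both peripheral axon groups and in batch 1 soma control 1.

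Likeness was described by Pearson's r of log2 CPM over the 31 libraries, among 18803 genes; libraries share a batch and differ in depth, and the r values carry no test. Calb1 was most like Dok5 (r = 0.93), Rsad1 (0.89) and Klhl32 (0.88), and the r with Dok5 was 0.95 over the 16 Cre libraries. Etv1 was most like Gna14 (0.90), Pde1c (0.89) and Tle4 (0.89), at 0.87, 0.90 and 0.88 in the Cre libraries. Cntnap2 was most like Lrfn1 (0.88), Cntnap4 (0.87) and Lhfpl3 (0.87), at 0.94, 0.95 and 0.97 in the Cre libraries. Th was most like Pkib (0.87), Gm49654 (0.86) and A230052G05Rik (0.83). Pvalb was most like Fxr1 (0.80), Bbip1 (0.80) and Lgals1 (0.79), and these r values were 0.36, 0.53 and 0.30 in the Cre libraries. Runx3 (Gm16551 0.83, Gm10373 0.82, Defb42 0.77), Slc17a8 (1700034H15Rik 0.81, Thsd7b 0.81, Catsperz 0.80) and Spp1 (Col6a1 0.75, Eif3a 0.75, Ghr 0.70) had counts of 10 or more in 12, 14 and 24 libraries. Among the markers themselves r over 31 libraries ran from -0.27 (Pvalb with Calb1) to 0.55 (Cntnap2 with Slc17a8). In the Cre libraries it ran from -0.53 (Etv1 with Calb1) to 0.71 (Cntnap2 with Th). The proprioceptor factors Runx3 and Etv1 had r = 0.31, and 0.70 in the Cre libraries, where Runx3 had 0.61 with the C-LTMR marker Th.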

How the data were processed

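The values are gene counts that the authors deposited without normalisation, in 1 table for each of the 2 batches, with 1 column per library per the file headers. The submitters' processing notes name STAR 2.7.2b and mm10; the counting program, its use of strand and its treatment of duplicates and shared reads are not given in the sources used here. Per the labels' protocols, RNA (under 1 ng from somas, under 100 pg from axons) went into SMART-Seq libraries, so that lowly expressed genes can drop out of single libraries. Symbols, positions and exon lengths came from GENCODE M21, which matched all 55536 identifiers. The 8 genes, the gene lists and the tests were chosen with earlier results of these data known.

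Each comparison was fitted on the deposited counts with edgeR 4.0.16 in R 4.3.3, using only the groups compared (filterByExpr at 10 counts and a total of 15, TMM scaling, glmQLFit and glmQLFTest), and calls were made at an adjusted p under 0.05. An SE is the size of the log2 fold change over the root of its F value. Normalised CPM use the TMM scaling; other CPM use library totals. Alternatives were RLE scaling, library totals alone, no filter, DESeq2 1.42.0, the replicate number as a block and leaving out each library. The code was tested on simulated counts. Named were the 8 genes, Scn10a, at most 2 called genes of each list with the smallest p, and the 3 genes with the highest r for each marker.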

Additional observations from a re-analysis of the deposited data

Results flagged for a closer look

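In 11 of 56 groups of 4 libraries, the gap between the highest library and its nearest neighbour was a larger share of the group's range than Dixon's critical value allows, a rule by which chance marks about 1 in 20 groups of normally distributed values. In 5 of the 11 the other 3 libraries had no count, which by itself meets the rule, so that rate does not apply to them. In the soma controls, batch 1 control 1 held 78.6 CPM of Runx3, control 3 held 43.9 CPM of Spp1 and 0.216 CPM of Calb1 (2 counts), and control a held 78.3 CPM of Th. Batch 2 soma control 6 held 29.4 CPM of Runx3, and control 8 held 186 CPM of Spp1 where the next library held 17.3 CPM. Central axon control 4 held 19.3 CPM of Pvalb, where the other 3 had no count, and 12.7 CPM of Slc17a8, where the next held 0.808 CPM. Batch 1 Cre soma 4 held 8.87 CPM of Slc17a8, where the next held 1.27 CPM. Peripheral axon Cre library 2, the deepest of its group, was the only one there with Runx3 (1.39 CPM) and Slc17a8 (0.930 CPM). Of these 11 values, 8 were in control libraries.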

How the results depend on the processing

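Of 649 marker fold changes refitted under alternatives, 589 kept their direction and their side of the threshold, 28 passed it, 9 no longer passed it and 23 changed sign; the causes were not tested. DESeq2 called 437 genes in central axons against control, 88 in peripheral axons against control, 1593 and 1529 in the somas of batches 1 and 2, 3752 in central axons against soma and 3619 in the central minus peripheral difference. With no filter 34 genes were called in central axons against control, 1700 in batch 1 somas and 162 in batch 2 somas. Library totals alone gave 2244 and 257 genes in the somas of batches 1 and 2, and RLE scaling gave 21 in batch 2. The median of all genes moved from -0.45 to 0.36 in batch 1 somas, from 0.06 to -0.20 in batch 2 somas, from 0.05 to 0.50 in central axons against soma and from -0.03 to 0.17 in peripheral axons against soma with library totals alone.

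Among markers, batch 1 somas had 1 call with library totals alone (Calb1), 1 with no filter and 1 in DESeq2 (Slc17a8). Batch 2 somas had 1 call (Pvalb) with RLE scaling, library totals alone or no filter, and 3 in DESeq2. Peripheral axons against soma had 0 calls with library totals alone, 2 with no filter and 3 in DESeq2. The central minus peripheral difference had 1 call with RLE scaling and 2 with no filter or DESeq2. Cntnap2 in central axons against soma was 0.20 with library totals alone, and Slc17a8 in the central minus peripheral difference was 0.049 with no filter.

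With the replicate number as a block, central axons against control gave 1 gene, with Calb1 at 0.14, Cntnap2 at 0.25 and Slc17a8 at 2.54. Batch 1 somas, with only numbers 1 and 3 to pair, gave 0 genes, with Th at 10.51, and central axons against soma gave 2226 genes and 3 markers, with Spp1 at 0.16. Same-numbered central axon and soma libraries had correlations of 0.20, -0.00494, 0.0876 and 0.18, and different-numbered ones ran from -0.24 to 0.18. No comparison checked had every same-number correlation over 0.1, so the numbers were not taken to pair the samples. This rule cannot show that the libraries were unpaired. No paired analysis was possible because no numbers are shared between peripheral axons and batch 2 somas, for that comparison or for the central minus peripheral difference, which includes both groups.

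Leaving out each library in turn, genes called ran from 0 to 5 in central axons against control, from 0 to 3094 and 0 to 1826 in the somas of batches 1 and 2, from 822 to 2717 and 3220 to 6055 in central and peripheral axons against soma, and from 1394 to 2856 in the central minus peripheral difference. Markers called ran from 0 to 1, 0 to 3, 2 to 3, 0 to 3 and 0 to 1 in the last 5. Log2 fold changes that crossed 0 in central axons against control were Calb1 (-0.80 to 0.0034), Cntnap2 (-0.92 to 0.13) and Slc17a8 (-1.37 to 2.57). Etv1 did so in peripheral axons against control (-0.092 to 1.52), Spp1 (-7.42 to 1.96) and Th (-1.12 to 9.89) in batch 1 somas and Runx3 (-1.73 to 0.73) in batch 2 somas. In central axons against soma these were Spp1 (-2.02 to 0.60), Cntnap2 (-0.40 to 0.15) and Slc17a8 (-1.50 to 0.38), in peripheral axons against soma Pvalb (-0.12 to 0.63), and in the central minus peripheral difference Runx3 (-0.80 to 5.74) and Slc17a8 (-0.48 to 4.57). With TMM scaling over all 31 libraries 60 of 64 mean levels moved by under 1 SD, and the others were Pvalb (3533), Spp1 (171) and Calb1 (0.285) in batch 1 soma controls and Etv1 (13.9) in batch 2 Cre somas, in CPM per kb. Runx3 and Slc17a8 rest on the fewest libraries with 10 or more counts, 12 and 14 of 31. The bounds without single libraries or with TMM scaling were added after seeing the data.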
